A study of Sus scrofa with 12 samples.

Results

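Chylomicron assembly in the pig duodenum was followed through 8 genes: APOB, MTTP, TM6SF2, APOA1, APOA4, APOC3, SAR1B and CREB3L3. A gene was represented by the probe set that carries its symbol in the annotation of the array and has the highest mean over all arrays, and further probe sets of the same symbol served as a check. Of these 8 genes, 7 had a probe set, out of 12266 named genes with signal above the filter, and together they had 15 probe sets. CREB3L3, a membrane-bound transcription factor that acts on apolipoprotein genes in mouse liver and intestine, has no probe set under its symbol in the annotation used here and was not analysed here.

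After a meal, enterocytes take up fatty acids and monoglycerides, rebuild triglyceride in the endoplasmic reticulum and load it onto apolipoprotein B with the help of the microsomal triglyceride transfer protein. The particle, the prechylomicron, gains further apolipoproteins, leaves the endoplasmic reticulum in COPII-dependent carriers and is secreted into lymph as a chylomicron. In humans, loss of MTTP causes abetalipoproteinaemia and loss of SAR1B causes chylomicron retention disease.

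The series compared duodenal mucosa of pigs (Sus scrofa) that differ in feed efficiency (FE), the growth a pig gains from its feed. There were 6 pigs of high FE and 6 of low FE, all 140 days old, and each group held 3 males (pigs 1 to 3) and 3 females (pigs 4 to 6). Each pig gave 1 Affymetrix Snowball array hybridised with labelled cDNA made from total RNA. The labels name no diet, breed, feeding state or slaughter batch, so no value can be set against the time since the last meal. Pig numbers follow the order of the samples and pair no animals.

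All values are log2 values as deposited, on which a difference of 1 is a doubling. Array medians lay between 3.83 and 3.91, and the median of 69 antigenomic probe sets, which match no pig transcript and mark array background, lay between 2.16 and 2.53. Levels of different probe sets depend on probe affinity and were not set against each other. The tissue label was checked on transcription factors of duodenal epithelium. PDX1 ranged from 7.37 to 7.59, CDX2 from 6.86 to 7.84 and HNF4G from 8.23 to 9.44. Each was above the array background medians in every pig. The brightest of the 69 antigenomic probe sets averaged 7.62, above all PDX1 values and within the CDX2 range, so the PDX1 values alone do not show a transcript. HNF4G lay above that mean in every pig. Brunner gland and gastric-type markers also had signal, with a mean over 6 of 8 listed genes of 5.62 to 9.10 in high FE and 6.79 to 11.16 in low FE. The mean of 7 pancreatic acinar markers was 6.33 in low FE pig 6 and between 3.53 and 3.94 in the other pigs. The liver also makes several of these apolipoproteins. The hepatocyte score, over 12 of 19 listed markers, ran from 4.67 to 5.04 in high FE and from 4.58 to 5.02 in low FE. ALB, the plasma albumin, lay between 2.01 and 3.03 and above the array background median on 8 of 12 arrays, and FGB and F9 were above it on 0. Other genes of that list had signal on all 12 arrays, such as CPS1 (7.91 to 9.72), a urea cycle enzyme that enterocytes also express, HPX (6.70 to 7.89) and AMBP (4.76 to 6.80). The part of hepatocytes in the members' values was not tested beyond the correlations with this score.

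None of the 7 measured genes differed by FE, by sex or by the interaction of both at an adjusted p under 0.05. Over all 33405 probe sets tested with limma, 0% passed for FE, and an ordinary linear model also called 0. At an unadjusted p under 0.05 there were 2000 probe sets, 884 with more and 1116 with less signal in high FE. The members varied between pigs. Their residual SD is the spread left after FE and sex. Among the 33405 probe sets it lay between the 72.7th percentile for APOA1 and the 97.76th for APOC3. What did pass a test was how 5 of them varied with each other from pig to pig. Of those 5, 4 also varied with mature enterocyte markers, and the share of all genes that do so was not counted.

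APOB, the structural protein of the chylomicron, ranged from 9.83 to 10.54 with a median of 10.24 in high FE. In low FE it ranged from 9.10 to 11.07 with a median of 9.88. The high FE pigs lay inside the range of the low FE pigs, where pigs 1 and 4 were the highest of all 12 and pigs 3, 6 and 2 the lowest. The SD was 0.28 (n = 6) in high FE and 0.86 (n = 6) in low FE, and this difference in spread was not tested. Further APOB probe sets above the filter differed in this. In high and low FE the SD was 0.26 and 0.91 for SNOWBALL_005117_st, and 0.50 and 0.85 for SNOWBALL_005417_st. For SNOWBALL_022761_st the order was reversed, with 1.40 in high FE and 0.68 in low FE (n = 6 each). The mean difference, high minus low FE, was 0.22 ± 0.33 (SE), with a 95% interval of -0.50 to 0.94 and an adjusted p of 0.87 from limma.

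MTTP, the lipid transfer protein that loads triglyceride onto APOB, ranged from 8.12 to 9.63 in high FE, with a median of 8.90. In low FE it ranged from 7.71 to 9.54, with a median of 8.85. The groups overlapped over most of their range, with low FE pig 3 lowest and high FE pig 4 highest. The FE difference was 0.15 ± 0.32 (SE), with an interval of -0.55 to 0.85 and an adjusted p of 0.917.

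TM6SF2, an endoplasmic reticulum protein that promotes the lipidation of APOB particles in human and mouse cells, ranged from 7.73 to 9.21 in high FE, with a median of 8.54. In low FE the range was 8.36 to 9.33, with a median of 8.91. High FE pigs 1, 2 and 5 lay below every low FE pig, while the other 3 lay within the low FE range. The FE difference was -0.42 ± 0.24 (SE), with an interval of -0.94 to 0.10. Its unadjusted p of 0.107 was the lowest among the members, and the adjusted p was 0.753 (limma).

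High FE pigs 5 and 1, with 2 of the 3 lowest TM6SF2 values, also had the lowest array background medians, 2.16 and 2.17. Across the 12 pigs TM6SF2 did not pass against the array background, with r = 0.45 (permutation p = 0.14, adjusted 0.288) and rho = 0.38 (permutation p = 0.227). With array background as a term in the model the FE difference was -0.34 ± 0.27 (SE, unadjusted p = 0.235 from limma). The sex difference with that term was -0.28 ± 0.27 (SE, unadjusted p = 0.319 from limma). As a description, TM6SF2 had r = 0.66 with the first principal component of the 33405 probe sets above the filter. That component had r = 0.93 with the array background.

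**Figure D1:**
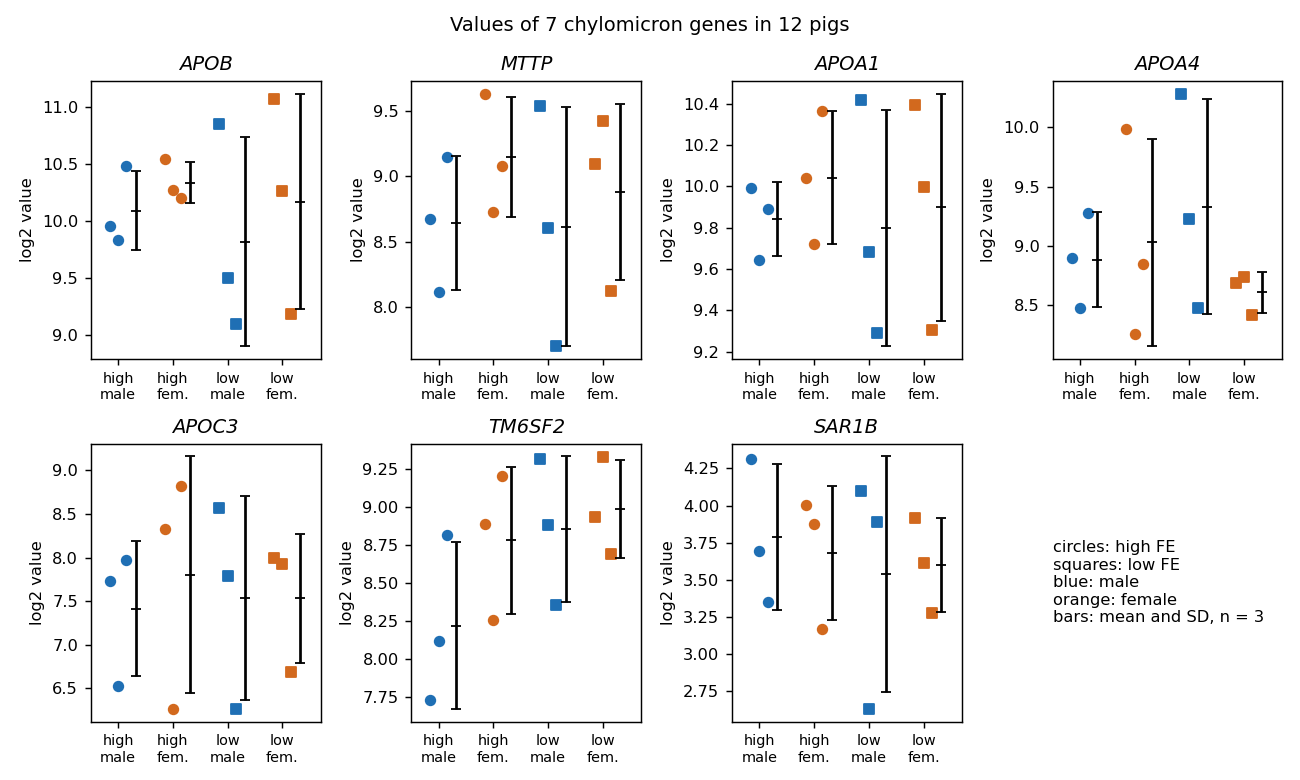
Log2 values of the brightest probe set of 7 chylomicron genes in each of 12 pigs, by FE group (circles high, squares low) and sex (blue male, orange female); bars give mean and SD of 3 pigs, and each panel has its own vertical scale. In every panel the high and low FE pigs overlap, and APOC3 has 4 pigs at or below 6.68 and 8 at or above 7.74.

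The exchangeable apolipoproteins APOA1, APOA4 and APOC3 lie side by side in the pig genome. In the order of protein-coding genes on Sscrofa11.1 they follow ZPR1 and APOA5 and precede SIK3, in the order APOA4, APOC3, APOA1. APOA1 is the main protein of high-density lipoprotein and is also carried on new chylomicrons. APOA4 is made mainly by the intestine and is secreted with lipid, and APOC3 inhibits lipoprotein lipase in plasma.

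APOA1 ranged from 9.65 to 10.36 in high FE (median 9.94) and from 9.29 to 10.42 in low FE (median 9.84). As for APOB, low FE pigs held both the highest values (pigs 1 and 4) and the lowest (pigs 3 and 6). Here high FE pig 6 stood close to the top. The FE difference was 0.094 ± 0.22 (SE), with an interval of -0.38 to 0.57 and an adjusted p of 0.924 (limma).

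APOA4 ranged from 8.26 to 9.98 in high FE (median 8.87) and from 8.41 to 10.28 in low FE (median 8.71). Low FE pig 1 and high FE pig 4 stood above the other 10 pigs, which reached at most 9.28. The FE difference was -0.013 ± 0.34 (SE), with an interval of -0.76 to 0.74 and an adjusted p of 0.996.

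APOC3 had the widest spread of the 7 genes, from 6.26 to 8.82 in high FE (median 7.85) and from 6.26 to 8.56 in low FE (median 7.86). The pigs fell on either side of a gap of 1.05, with 4 pigs at or below 6.68 and 8 at or above 7.74. The 4 low pigs were high FE pigs 2 and 5 and low FE pigs 3 and 6, so that each FE group and each sex held 2 of them. The FE difference was 0.071 ± 0.50 (SE), with an interval of -1.01 to 1.15 and an adjusted p of 0.98 (limma).

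SAR1B, the small GTPase that starts COPII coat assembly, gave a low signal. It ranged from 3.17 to 4.32 in high FE (median 3.79) and from 2.63 to 4.10 in low FE (median 3.75). All 12 values were above the background median of their array, yet the brightest of the 69 antigenomic probe sets averaged 7.62, so such values alone do not show a transcript. The FE difference was 0.16 ± 0.27 (SE), with an interval of -0.42 to 0.74 and an adjusted p of 0.881.

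Sex was the second factor recorded for these pigs. Of the 33405 probe sets tested, 0.021% passed for sex, and none of the 7 members was among these 7 probe sets. Differences, male minus female, ran from -0.38 ± 0.32 (SE) for MTTP to 0.29 ± 0.34 (SE) for APOA4, and the lowest adjusted p among the members was 0.975 (limma). In TM6SF2 the difference was -0.35 ± 0.24 (SE), with means of 8.54 ± 0.58 in males and 8.89 ± 0.38 in females (SD, n = 6). The sexes overlapped for every member.

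For the interaction, 0.00299% of the probe sets tested passed (1 probe set) and no member did, with an adjusted p of 0.998 for each. For APOA4 the sexes had opposite signs. Its FE difference was -0.45 ± 0.48 (SE) in males and 0.42 ± 0.48 (SE) in females, which made an interaction of -0.86 ± 0.67 (SE, unadjusted p = 0.225 from limma) with an interval of -2.34 to 0.61. Leaving out 1 pig moved it to between -1.29 and -0.39, the last when low FE pig 1 was left out and likewise for high FE pig 4. Among low FE females APOA4 was 8.61 ± 0.17 (SD, n = 3), and among low FE males 9.33 ± 0.91 (SD, n = 3). TM6SF2 had an FE difference of -0.63 ± 0.34 (SE) in males and -0.20 ± 0.34 (SE) in females, and its interaction of -0.43 ± 0.49 (SE) had an interval of -1.50 to 0.64.

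**Figure D2:**
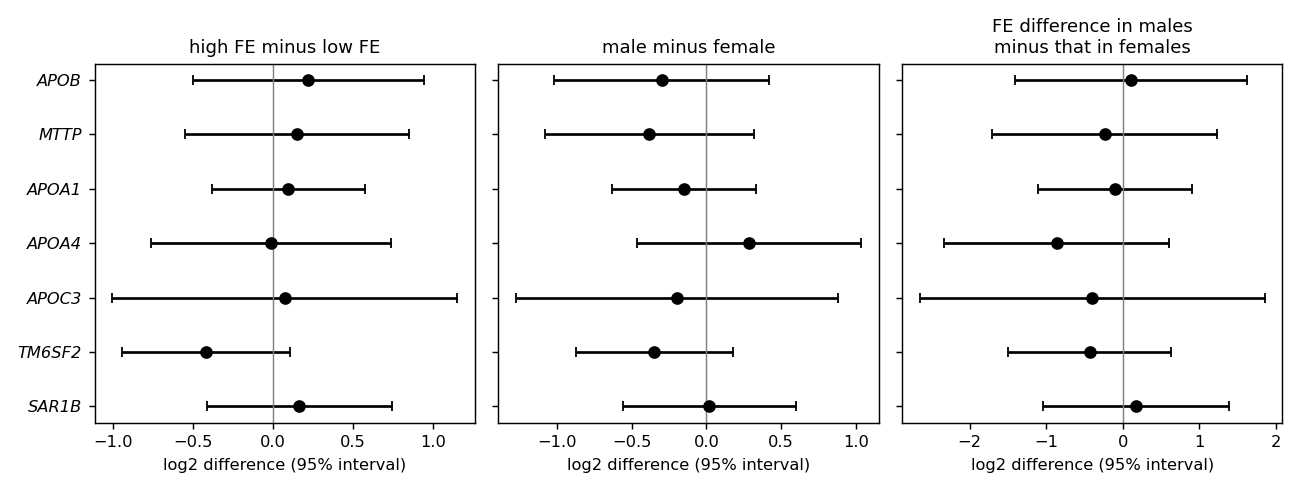
Differences of the 7 genes on the log2 scale with 95% intervals from limma, for high minus low FE, male minus female, and the FE difference in males minus that in females; the vertical line marks 0. Every interval holds 0, and APOC3 has the widest, from -1.01 to 1.15 for FE.

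Further probe sets of a gene allowed a check of the values. APOB had 5 besides the brightest (SNOWBALL_034098_st). SNOWBALL_005117_st and SNOWBALL_005417_st followed it over the pigs with r = 0.97 and r = 0.91. SNOWBALL_022761_st followed it less closely (r = 0.41) and differed between the sexes by -1.14 ± 0.48 (SE), with an unadjusted p of 0.0334 and an adjusted p of 0.975 (limma). The remaining APOB probe sets lay at background, above the array background median on 0 and 1 of 12 arrays, and did not enter the tests.

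For APOA1, the second probe set (SNOWBALL_012488_st) followed the brightest (SNOWBALL_023293_s_st) with r = 0.59 and gave an FE difference of -0.23 ± 0.22 (SE, adjusted p = 0.796), of opposite sign to that of the brightest. For APOA4, SNOWBALL_023242_s_st followed SNOWBALL_012467_st with r = 0.96 and gave nearly the same interaction, -0.89 ± 0.55 (SE). SNOWBALL_034351_st, with a mean of 3.61, ran against the brightest with r = -0.56 and gave an interaction of 1.21 ± 0.50 (SE), with an unadjusted p of 0.0341 and an adjusted p of 0.998 (limma). The annotation does not say how this probe set differs from the others. Its low signal, like that of SAR1B, does not by itself show a transcript. MTTP (SNOWBALL_011662_st), APOC3 (SNOWBALL_012359_st), TM6SF2 (SNOWBALL_025934_st) and SAR1B (SNOWBALL_029543_st) had 1 probe set each, so these 4 genes have no such check.

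**Figure D3:**
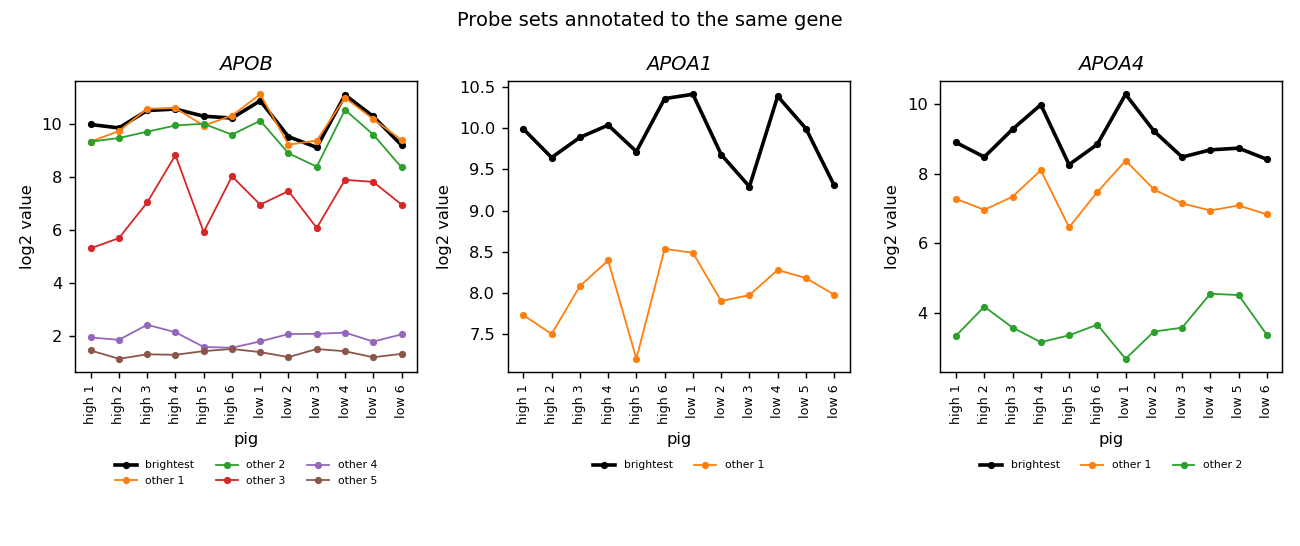
Log2 values of every probe set annotated to APOB, APOA1 and APOA4 in each of 12 pigs, with the brightest in black; lines only join the values of a probe set. For APOB, others 1 and 2 run with the brightest (r of 0.91 and 0.97) and others 4 and 5 lie at the level of array background, while for APOA4 other 2 runs against it (r = -0.56).

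Although no member separated the FE groups, several varied together over pigs. Of the 21 pairs of members, 7 passed by a permutation test of Pearson's r with Benjamini-Hochberg adjustment over the 21 pairs. APOB went with APOA1 at r = 0.88 (permutation p = 0.00028, adjusted 0.00553) and rho = 0.85 (permutation p = 0.00092). With MTTP, its loading factor, APOB had r = 0.84 (permutation p = 0.00075, adjusted 0.00553) and rho = 0.86 (permutation p = 0.00059). Among 12265 other genes, 0.636% had r above 0.8 with APOB, 0.848% with MTTP, 0.652% with APOA1 and 0.921% with APOC3. Ranked by r with APOB, APOA1 stood at place 19 of these genes and MTTP at place 39.

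APOA1 also went with APOC3, its neighbour in the genome, at r = 0.85 (permutation p = 0.00079, adjusted 0.00553) and rho = 0.87 (permutation p = 0.00042). MTTP was tied to both of these apolipoproteins. With APOC3 it had r = 0.82 (permutation p = 0.00149, adjusted 0.00626) and rho = 0.78 (permutation p = 0.00389), and with APOA1 it had r = 0.82 (permutation p = 0.00134, adjusted 0.00626) and rho = 0.83 (permutation p = 0.00146). Ranked by r with APOA1, APOC3 stood at place 31 and MTTP at place 60. Ranked by r with MTTP, APOC3 stood at place 74. These 5 pairs passed whichever single pig was left out, with a highest adjusted permutation p of 0.0323.

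APOA4 joined less firmly. With APOC3 it had r = 0.71 (permutation p = 0.00858, adjusted 0.03) and rho = 0.73 (permutation p = 0.00875). This pair no longer passed when any of 5 pigs was left out (high FE pigs 2 and 5, low FE pigs 1, 3 and 6), with an adjusted permutation p of up to 0.071. With MTTP it had r = 0.69 (permutation p = 0.0123, adjusted 0.037) and rho = 0.66 (permutation p = 0.0225). That call was lost without any of 6 pigs (high FE pigs 2, 3 and 4, low FE pigs 1, 3 and 6), with an adjusted permutation p of up to 0.0953. Ranked by r with APOA4, APOC3 stood at place 134 and MTTP at place 188, and APOA4 itself stood at place 332 for APOC3 and 323 for MTTP, with 0.261% of genes above 0.8 for APOA4. APOA4 and APOA1, although in the same cluster of genes, did not pass, with r = 0.53 (permutation p = 0.0757, adjusted 0.145) and rho = 0.59 (permutation p = 0.0459).

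TM6SF2 and SAR1B were in none of the 7 pairs. TM6SF2 missed the threshold with APOC3, at r = 0.66 (permutation p = 0.0204, adjusted 0.0535) and rho = 0.77 (permutation p = 0.00483). With MTTP it had r = 0.64 (permutation p = 0.0256, adjusted 0.0598) and rho = 0.70 (permutation p = 0.0141). APOB and APOC3 also missed it, at r = 0.63 (permutation p = 0.0295, adjusted 0.0619) and rho = 0.66 (permutation p = 0.0216). SAR1B had r between -0.36 and 0.38 with the other members, at a signal close to background.

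These near misses depended on the measure. On deviations from the fit with FE and sex, TM6SF2 passed with APOC3 (r = 0.78, adjusted permutation p = 0.0103), MTTP (r = 0.75, adjusted permutation p = 0.0145) and APOA4 (r = 0.69, adjusted permutation p = 0.0186). By Spearman's rho it passed with APOC3 (adjusted permutation p = 0.0169), MTTP (0.037) and APOA1 (0.0386), and APOB passed with APOC3 (0.0429). Over all 21 pairs, 10 passed on those deviations and 11 by rho. The permutations did not allow for the terms fitted beforehand, so permutation p-values on deviations can be too small, here and below.

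Without the 2 pigs farthest from the median of the first gene of a pair, the 7 pairs kept an r of 0.67 to 0.77, while 0 of 21 pairs passed, with a lowest adjusted permutation p of 0.099 over 10 pigs. For APOA4 with APOC3 r went from 0.71 to 0.72, for MTTP with APOA4 from 0.69 to 0.67 and for APOB with MTTP from 0.84 to 0.69. For APOC3, whose pigs lie on either side of a gap, the r within the 8 pigs above it was 0.70 with APOA1, 0.53 with MTTP, 0.39 with APOA4 and 0.37 with APOB. The 4 pigs below the gap are too few for a value of their own.

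**Figure D4:**
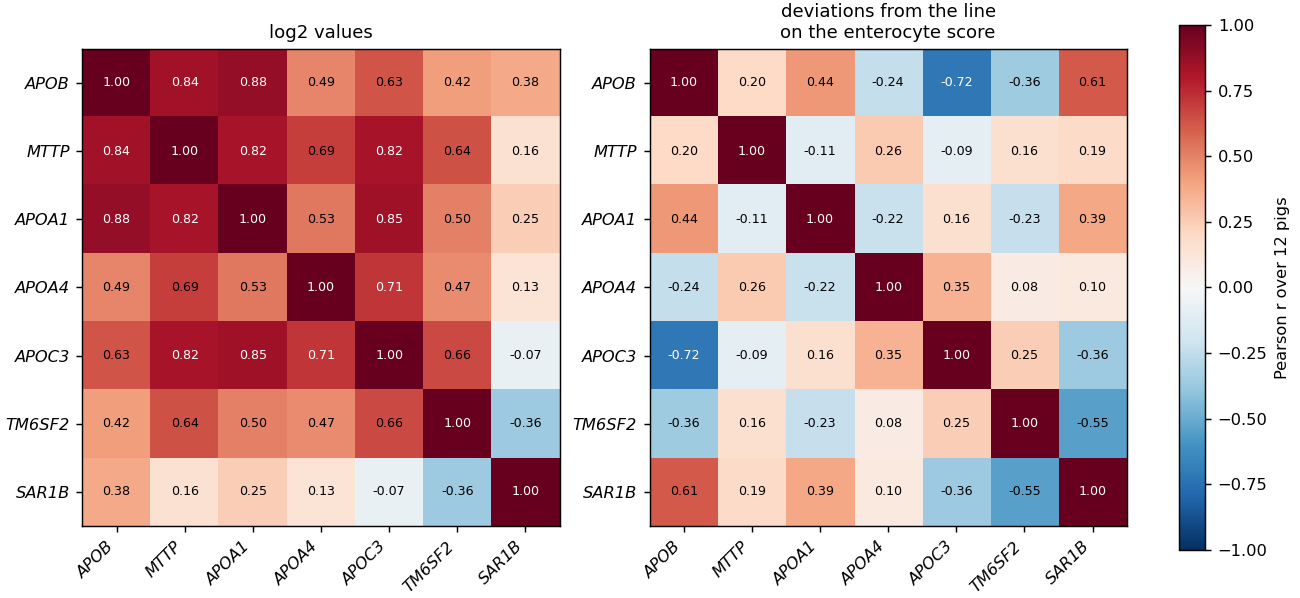
Pearson's r over 12 pigs for every pair of the 7 genes, on log2 values (left) and on deviations from a line on the mature enterocyte score (right); colour and number give r. On the left APOB, MTTP, APOA1 and APOC3 form a block with r from 0.63 to 0.88, and on the right APOB and APOC3 run against each other with r = -0.72.

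The same genes moved with markers of the cells that make chylomicrons. The mature enterocyte score was the mean of 16 of 20 listed markers (brush border enzymes, transporters and structural genes, with no lipid gene among them). It ranged from 8.25 to 9.28 in high FE and from 7.73 to 9.28 in low FE, and the groups overlapped. In bulk mucosa, fewer enterocytes and less RNA per enterocyte cannot be told apart.

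MTTP followed this score with r = 0.93 (permutation p = 3e-05, adjusted 0.00112) and rho = 0.88 (permutation p = 0.00038). APOA1 followed it with r = 0.90 (permutation p = 3e-05, adjusted 0.00112) and rho = 0.92 (permutation p = 9e-05), and APOC3 with r = 0.90 (permutation p = 4e-05, adjusted 0.00112) and rho = 0.92 (permutation p = 6e-05). For APOB the values were r = 0.87 (permutation p = 0.00021, adjusted 0.00441) and rho = 0.83 (permutation p = 0.00129). Adjustment was over 84 relations, 7 members against 11 marker scores and the array background. All 4 relations passed whichever single pig was left out. How many of all genes follow the score as closely was not counted. These relations are thus not shown to be particular to the members. Without the 2 pigs farthest from the median of the member, r was 0.89 for MTTP, 0.83 for APOA1, 0.86 for APOC3 and 0.74 for APOB. As a description, other probe sets gave r with the score of 0.69 for APOA1, of 0.77, 0.84 and 0.68 for the 3 further APOB probe sets tested, and of 0.58 and 0.053 for APOA4.

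APOA4 did not pass against the score, with r = 0.67 (permutation p = 0.0169, adjusted 0.0568) and rho = 0.78 (permutation p = 0.00452). TM6SF2 did not pass either, with r = 0.64 (permutation p = 0.0263, adjusted 0.0818) and rho = 0.66 (permutation p = 0.0244). On deviations from the fit with FE and sex both passed, APOA4 with r = 0.78 (adjusted permutation p = 0.0114) and TM6SF2 with r = 0.77 (adjusted permutation p = 0.0184). APOA4 also passed by rho (adjusted permutation p = 0.0431). SAR1B had r = 0.09 (permutation p = 0.78, adjusted 0.819) and rho = 0.31 (permutation p = 0.315). A line on the score held 86.2% of the variance of MTTP, 81.7% for APOA1, 81.5% for APOC3, 75.2% for APOB, 44.3% for APOA4, 40.9% for TM6SF2 and 0.819% for SAR1B. The 4 pigs low in APOC3 were also the 4 with the lowest score, between 7.73 and 8.39. Within the 8 pigs above the APOC3 gap its r with the score was 0.67.

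**Figure D5:**
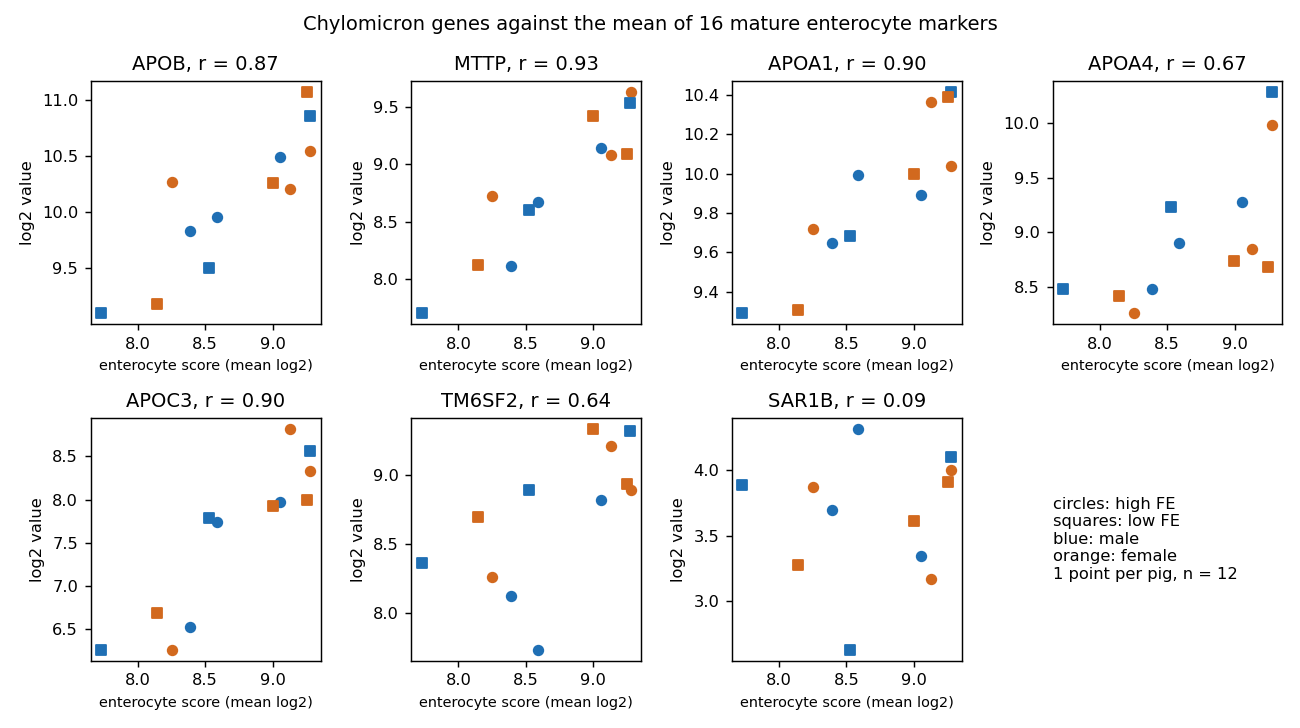
Log2 value of each of 7 genes (vertical) against the mature enterocyte score, the mean log2 value of 16 markers (horizontal), with 1 point per pig; circles are high FE, squares low FE, blue male and orange female. MTTP, APOA1, APOC3 and APOB rise along the score with r of 0.93, 0.90, 0.90 and 0.87, and SAR1B has r = 0.09.

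Once each gene was taken as its deviation from a line on that score, a step added after the data were seen, 0 of the 21 pairs passed. The strongest remaining relation, of APOB with APOC3, had the opposite sign, with r = -0.72. With the score as a term in the model, no FE difference of a member passed. That of TM6SF2 was then -0.50 ± 0.18 (SE), with an unadjusted p of 0.0152 and an adjusted p of 0.728 (limma). With the Brunner gland score as the term, added after the data were seen, it was -0.58 ± 0.25 (SE), with an unadjusted p of 0.0431 and an adjusted p of 0.871 (limma).

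Scores of other cell types moved with the members too, and of the 84 relations 17 passed. How many of all genes follow each of these scores as closely was not counted. The 17 relations are thus not shown to be particular to the members. APOC3 followed the leukocyte score, the mean of 9 of 12 markers, with r = 0.83 (permutation p = 0.00107, adjusted 0.015) and rho = 0.89 (permutation p = 0.00024), and this passed whichever single pig was left out. That score ranged from 6.60 to 7.39 in high FE and from 6.62 to 7.15 in low FE. APOA4 missed the threshold with it at r = 0.68 (permutation p = 0.0144, adjusted 0.0526) and passed by rho (0.85, adjusted permutation p = 0.0126). On deviations from the fit with FE and sex, APOA4 (r = 0.71, adjusted permutation p = 0.028) and TM6SF2 (r = 0.88, adjusted permutation p = 0.00322) also passed with it. The duodenal identity score, over 5 of 7 transcription factors, ran from 7.67 to 8.15 in high FE and from 7.77 to 8.26 in low FE. It went with APOA1 at r = 0.85 (permutation p = 0.00051, adjusted 0.00857) and rho = 0.89 (permutation p = 0.00034), whichever single pig was left out. With APOC3 it had r = 0.82 (permutation p = 0.00156, adjusted 0.0187) and rho = 0.72 (permutation p = 0.0107), lost without low FE pig 1 (adjusted permutation p = 0.0598). With MTTP it had r = 0.75 (permutation p = 0.0064, adjusted 0.0336) and rho = 0.73 (permutation p = 0.0101), lost without any of 8 pigs (adjusted permutation p of up to 0.105). By rho the relations of this score with APOC3 and MTTP did not pass, with an adjusted permutation p of 0.0689 each.

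Some relations were negative. The Brunner gland and gastric-type score ran against APOA1 at r = -0.77 (permutation p = 0.00297, adjusted 0.0312) and rho = -0.65 (permutation p = 0.0262). Against MTTP it had r = -0.75 (permutation p = 0.00513, adjusted 0.0336) and rho = -0.57 (permutation p = 0.0602), and against APOC3 r = -0.74 (permutation p = 0.0064, adjusted 0.0336) and rho = -0.59 (permutation p = 0.0507). The smooth muscle score, over 9 of 10 markers, ran from 8.06 to 8.52 in high FE and from 8.06 to 8.90 in low FE. It went against APOB at r = -0.74 (permutation p = 0.00632, adjusted 0.0336) and rho = -0.61 (permutation p = 0.0402). Against MTTP it had r = -0.74 (permutation p = 0.0056, adjusted 0.0336) and rho = -0.57 (permutation p = 0.0564), and against APOA4 r = -0.75 (permutation p = 0.00575, adjusted 0.0336) and rho = -0.55 (permutation p = 0.0665). Without the 2 pigs farthest from the median of the member, r with smooth muscle was -0.26 for APOA4, -0.46 for APOB and -0.84 for MTTP, so the first pair of these rests on those pigs. Likewise r with the Brunner gland score was then -0.61 for APOA1, -0.50 for MTTP and -0.64 for APOC3. Against the hepatocyte score no member passed on log2 values, with r from -0.69 for APOA4 to -0.15 for SAR1B. On deviations from the fit with FE and sex, APOB (r = -0.81, adjusted permutation p = 0.00779), MTTP (r = -0.77, adjusted permutation p = 0.0165) and APOA4 (r = -0.67, adjusted permutation p = 0.0407) passed.

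The crypt proliferation score, over 13 markers, ran from 5.66 to 6.20 in high FE and from 5.57 to 6.16 in low FE. It went with APOC3 at r = 0.77 (permutation p = 0.00447, adjusted 0.0336) and rho = 0.63 (permutation p = 0.0329). With APOA1 it had r = 0.75 (permutation p = 0.00585, adjusted 0.0336) and rho = 0.75 (permutation p = 0.00727), and with MTTP r = 0.72 (permutation p = 0.00971, adjusted 0.048) and rho = 0.66 (permutation p = 0.0226). Each of the called relations with the Brunner gland, smooth muscle and crypt proliferation scores lost its call without low FE pig 3 and without low FE pig 6, with an adjusted permutation p of up to 0.177. By rho none of these relations passed, with a lowest adjusted permutation p of 0.0611, for APOA1 with crypt proliferation. APOA4 with crypt proliferation, not called by r, passed by rho (adjusted permutation p = 0.0431). The number of relations called went from 17 to 7 without either of these pigs, to 8 without low FE pig 1 or 5 and to 9 without high FE pig 3. Low FE pig 3 had the highest Brunner gland score (11.16) and the lowest enterocyte score (7.73). Low FE pig 6 had the highest pancreatic acinar score (6.33). These pigs also shared the highest smooth muscle score, 8.90.

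The scores are not independent of each other. As a description, the enterocyte score had r = -0.78 with the Brunner gland score and r = -0.73 with the smooth muscle score over the 12 pigs. It had r = 0.78 with the duodenal identity score, 0.77 with the crypt proliferation score and 0.66 with the leukocyte score. The part of any of these cell types in the members' values was not tested beyond the models with the enterocyte or the Brunner gland score as a term.

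The genes whose signal was most like that of a member were named by the highest r over 12 pigs among 12265 genes, as a description without a test. For APOB these were STK17B (r = 0.94), PLS1 (0.92), an actin-bundling protein of microvilli, and GCA (0.92), and the lowest r was that of CNN3, a calponin (-0.95). For MTTP they were HSD17B4 (0.94), an enzyme of peroxisomal beta-oxidation, and DPP4 (0.925) and SLC6A19 (0.92), a brush border peptidase and an amino acid transporter that are both in the enterocyte list. CHRDL1 had the lowest r with MTTP (-0.92).

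For APOA1 the most alike were SLC35F2 (r = 0.94), VIL1 (0.93), the villin of the brush border and an enterocyte marker in the list, and CENPA (0.92). The lowest r was that of the probe set named ssc-mir-199b (-0.96). For APOC3 they were GZMB (0.96), the granzyme B of cytotoxic lymphocytes, PSME2 (0.95), a proteasome activator subunit, and PDE9A (0.94), with FAM107A lowest (-0.98). For APOA4 they were DLST (0.88), a subunit of the 2-oxoglutarate dehydrogenase complex, GPD2 (0.87), the mitochondrial glycerol-3-phosphate dehydrogenase, and HSD17B12 (0.87), an enzyme of fatty acid elongation, with RTN2 lowest (-0.91).

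TM6SF2 had SMPD3 (r = 0.96), a neutral sphingomyelinase, REEP6 (0.96) and TM4SF5 (0.96) as the most alike, with CCDC88A lowest (-0.91). It also had more genes with r above 0.8 than the other members, 262 or 2.14% of all genes, against 113 or 0.921% for APOC3 and 32 or 0.261% for APOA4. For SAR1B, with 9 such genes or 0.073%, the most alike were SLC25A36 (0.89), INTS12 (0.86) and CCDC150 (0.86), with ZNF75D lowest (-0.95).

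The genes around the members in the pathway were read by list. Over the 12266 genes the median FE difference was -0.037, with 41.8% higher and 58.2% lower in high FE, and 0 genes of the 9 pathway lists passed for FE or for sex. Of 15 measured genes of triglyceride and cholesteryl ester synthesis, 4 were higher and 11 lower, with a median difference of -0.21. The acyltransferases AGPAT1 and AGPAT2, which make phosphatidic acid, differed by -0.49 ± 0.22 (SE, unadjusted p = 0.0415) and -0.59 ± 0.27 (SE, unadjusted p = 0.0448), with an adjusted p of 0.753 each (limma).

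Among 8 genes of fatty acid uptake and handling, 3 were higher and 5 lower, with a median of -0.063. SCARB1, a receptor for high-density lipoprotein that also acts in cholesterol uptake, differed by -0.50 ± 0.35 (SE, adjusted p = 0.76), and CD36, a fatty acid translocase, by -0.29 ± 0.25 (SE, adjusted p = 0.777). Of 13 genes of MTTP's partner, particle lipidation and lipid droplets, 3 were higher and 10 lower, with a median of -0.073. CIDEC, a lipid droplet fusion protein, differed by -0.73 ± 0.35 (SE), and PLIN2, a coat protein of lipid droplets, by -0.54 ± 0.25 (SE), with an adjusted p of 0.753 each.

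PLIN2 and HSPA5, the endoplasmic reticulum chaperone BiP, also stood first in that list for sex. PLIN2 was 5.97 ± 0.34 in males and 6.65 ± 0.68 in females (SD, n = 6), a difference of -0.68 ± 0.25 (SE). HSPA5 was 10.68 ± 0.18 and 10.33 ± 0.14, a difference of 0.35 ± 0.11 (SE). Neither passed, with an adjusted p of 0.975 (limma).

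Of 17 COPII genes, the coat that SAR1B starts, 10 were higher and 7 lower in high FE (median 0.020), and differences ran from -0.19 to 0.21. SEC31A, of the outer coat, differed by -0.19 ± 0.11 (SE, adjusted p = 0.753) and KLHL12, a ubiquitin ligase adaptor for large COPII carriers, by -0.15 ± 0.11 (SE, adjusted p = 0.762). For sex, 13 of the 17 were higher in males and 4 lower, with a median of 0.12 beside 0.005 over all genes. Of all genes, 51% were higher and 49% lower in males. SEC23B and SEC24D, of the inner coat, differed by 0.43 ± 0.12 (SE) and 0.37 ± 0.13 (SE), with an adjusted p of 0.975 each.

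Of 8 genes of SNAREs and Golgi transit, 2 were higher and 6 lower in high FE with a median of -0.034. RAB1B, a GTPase of transport to the Golgi, differed by -0.50 ± 0.23 (SE, adjusted p = 0.753) and the SNARE STX5 by -0.39 ± 0.25 (SE, adjusted p = 0.753). For sex, RAB11A of recycling endosomes differed by -0.22 ± 0.16 (SE) and the SNARE GOSR1 by -0.12 ± 0.12 (SE), with adjusted p of 0.975 and 0.979.

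Of 13 other apolipoproteins and related genes, 7 were higher and 6 lower in high FE with a median of 0.0082. APOD differed by -0.69 ± 0.37 (SE) and APOF by -0.33 ± 0.16 (SE) at a level near background, both with an adjusted p of 0.753. For sex, 3 were higher and 10 lower in males, beside 51% higher and 49% lower over all genes. APOOL, a mitochondrial protein despite its name, differed by -0.45 ± 0.18 (SE). APOA2 differed by -0.33 ± 0.17 (SE), also at a level near background. It was 2.59 ± 0.30 in males and 2.92 ± 0.26 in females (SD, n = 6). Both genes had an adjusted p of 0.975.

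Transcription factors that act on these genes were represented by 24 genes, 7 higher and 17 lower in high FE, with a median of -0.064. FOXA2, a factor of gut and liver endoderm, differed by -0.36 ± 0.16 (SE, adjusted p = 0.753) and XBP1, of the unfolded protein response, by -0.30 ± 0.21 (SE, adjusted p = 0.764). For sex, ZNF202, described in human cells as a repressor of lipid genes, differed by 0.57 ± 0.14 (SE, unadjusted p = 0.00144, adjusted p = 0.975), from 5.03 ± 0.22 in males to 4.46 ± 0.22 in females (SD, n = 6). SREBF2, which acts on cholesterol synthesis, differed by 0.19 ± 0.098 (SE, adjusted p = 0.975).

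In place of CREB3L3, 6 genes were measured, mainly of its family and its activating proteases. Of these 6, 1 was higher and 5 lower in high FE, with a median of -0.089. CREB3L4 differed by -0.59 ± 0.29 (SE, adjusted p = 0.753) and the site-1 protease MBTPS1 by -0.14 ± 0.12 (SE, adjusted p = 0.772). For sex, CREB3L4 differed by 0.70 ± 0.29 (SE) and CREB3L2 by 0.33 ± 0.15 (SE), with an adjusted p of 0.975 each (limma). Of 8 genes of chylomicron clearance, which acts mainly outside the mucosa, 2 were higher and 6 lower, with a median of -0.11. PCSK5 differed by 0.40 ± 0.23 (SE, adjusted p = 0.753), and LMF1, which lipases need to mature, by -0.20 ± 0.13 (SE, adjusted p = 0.755).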

How the data were processed

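RNA of duodenal mucosa from 12 pigs was measured on Affymetrix Snowball arrays, 1 per pig. The deposited values are log2 signals by the authors, a scale read from the values, and were used as deposited. GCOS 1.1.1 is named per the submitters' processing notes. Of background correction, normalization and summarization, nothing is given in the sources used here. Symbols came from the platform annotation, which can be old, and 178 of 13755 were updated through Sscrofa11.1 gene names. Of all probe sets, 26426 had 1 symbol and 21296 had none. After leaving out 123 controls, probe sets with a mean above the 30th percentile, 2.37, were tested (33405 of 47845, with 13 of the members' 15). The number of arrays limits the precision.

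FE and sex were fitted in 1 model, and a mean per combination of FE and sex gave the interaction, with limma 3.58.1 in R 4.3.3 and p-values adjusted over these 33405 probe sets (Benjamini-Hochberg), at a threshold of 0.05. Correlations over pigs used two-sided permutation tests with 100000 resamples (Python 3.11.15, NumPy 2.4.6, SciPy 1.17.1). The labels call the samples separate pigs. The fits were tested on simulated data. Beside the members, the text names for each member the 3 genes with the highest and the 1 with the lowest r, and for each pathway list the 2 genes with the lowest unadjusted p per comparison, in part. Marker genes are named as checks. Members and lists were chosen with earlier results of these data known. Alternatives changed the filter, scaling, variance model, weights, probe sets per gene, model terms, measure of correlation and pigs.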

Additional observations from a re-analysis of the deposited data

How the results depend on the processing

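No member passed under any alternative, with a lowest adjusted p (limma) of 0.524 for FE, 0.675 for sex and 0.851 for the interaction, while directions turned in 27 of 167, 14 of 167 and 19 of 98 values. TM6SF2 stayed negative throughout for FE. The FE difference turned for APOA4 under quantile normalization (0.032) and array weights (0.082), for APOA1 with the mean of its probe sets (-0.066), for APOC3 with the enterocyte score as a term (-0.14), and with array background as a term for APOB (-0.085), MTTP (-0.019), APOA1 (-0.038) and SAR1B (-0.033). With the Brunner gland score in the model, added after seeing the data, it turned for APOB (-0.13), MTTP (-0.24), APOA1 (-0.17) and APOC3 (-0.58). The sex difference turned for SAR1B under array weights (-0.086) and array background (-0.16), for APOA1 (0.017) and APOC3 (0.21) with the enterocyte score, and for both (0.0069 and 0.19) with the Brunner gland score. The cause was not tested.

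Without each pig in turn, the FE difference ran from 0.007 to 0.44 for APOB, -0.043 to 0.24 for APOA1, -0.27 to 0.25 for APOA4, -0.19 to 0.39 for APOC3, -0.042 to 0.36 for MTTP and -0.047 to 0.29 for SAR1B. The sex difference ran from -0.52 to -0.094 for APOB, -0.60 to -0.19 for MTTP, 0.028 to 0.55 for APOA4, -0.52 to 0.066 for APOC3 and -0.11 to 0.23 for SAR1B. The interaction ran from -0.35 to 0.21 for APOA1, -0.34 to 0.63 for APOB, -1.29 to -0.39 for APOA4, -1.17 to 0.12 for APOC3, -0.69 to 0.22 for MTTP and -0.28 to 0.45 for SAR1B. Probe sets called numbered 0 to 1 for FE (1 without low FE pig 4), 6 to 8 for sex and 0 to 1 for the interaction (0 unless the pig left out was low FE pig 2 or 6).

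Member pairs called, 7 of 21, numbered 11 by Spearman's rho, 10 as deviations from the fit with FE and sex, 5 under quantile normalization, 0 without the 2 farthest pigs, 0 as deviations from the enterocyte line and 5 to 10 without each pig. Relations with marker scores, 17 of 84, numbered 28 as such deviations from FE and sex, 9 by Spearman's rho and 7 to 23 without each pig. SAR1B has no value under the filter at the median, where it is left out. No paired analysis was possible because pig numbers follow accession order and the labels pair no animals. Adjustment was over 21 pairs and not the 28 planned, since CREB3L3 has no value.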
